A study of Mus musculus with 4 samples.

Results

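A set of 10 transcription factors, of 28692 genes measured, that mark position along the gut tube or a kind of mesenchymal cell, and that are not Hox genes, were followed across the mesenchymal stromal cells (MSC) of the mouse small intestine and colon. They are Pitx1, Isl1, Prrx1, Osr1, Nkx2-3, Foxf1, Foxf2, Foxl1, Sox6 and Ebf1. The 10 genes were selected on their unique molecular identifier (UMI) counts in these same libraries, by intestine and cell class, so their levels and their colon to small intestine differences are given as a description with no test.

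These factors belong to families that divide up the gut mesenchyme during development. Forkhead factors of the FoxF and FoxL groups are switched on in the mesenchyme next to the gut epithelium by Hedgehog signals from that epithelium, and Foxl1 marks subepithelial cells that supply Wnt ligands to the crypt. Homeodomain factors such as Nkx2-3, Pitx1 and Isl1 are laid down in domains along the body axis and can keep those domains in adult stroma. Osr1 and Prrx1 mark loose connective tissue progenitors, Sox6 is a SoxD factor without a transactivation domain of its own, and Ebf1 is known from B cells, adipocyte precursors and perivascular cells.

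The cells came from untreated female C57BL6/Nrj mice of 8 to 10 weeks, in 2 independent experiments per organ with 3 pooled mice each. Because mice were pooled, the spread between single mice cannot be seen. Live cells negative for CD45, Ter119, CD31, BP3, EpCAM and L1CAM and positive for Itgb1 were sorted after the muscularis externa had been stripped, and droplet single-cell RNA-seq gave 2 libraries from the small intestine and 2 from the colon. No group carries an allele or a treatment, so the comparison is colon against small intestine, and the labels do not give which mice went into which library. Libraries held between 14341443 and 52269372 UMIs in 2061 to 16795 barcodes, and the replicate 1 libraries were deeper per cell (median 6950 and 8810 UMIs) than the replicate 2 libraries (median 2694 and 3855 UMIs).

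Cells were placed in classes by the likelihood of their marker UMIs, with none of the 10 factors among the markers. The classes were PDGFRαhi fibroblasts (FB), which lie under the epithelium, CD81+ FB, other FB (neither PDGFRαhi nor CD81+), smooth muscle cells (SMC) and pericytes, and 27948 cells of 34983 barcodes fell in these 5 classes. A class cut from a score is a range and not a type. The share of cells near the cut was 17.6% to 36.7% in other FB and 14.3% to 25.5% in CD81+ FB. In SMC it was 13.9% and 25.7% in the small intestine against 1.16% and 2.37% in the colon. Clusters computed without the 10 factors gave the same class to 85.0% to 91.1% of cells.

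Marker lists of neighbouring classes were not evenly spread between the intestines, and their part in the results was not tested. The 6 SMC markers summed to 6997 to 10516 CPM (counts-per-million, the UMIs of a gene scaled to all UMIs of a class in a library) in small intestinal PDGFRαhi FB against 2904 to 5530 CPM in colonic ones. The 6 general FB markers reached 9812 to 16876 CPM in small intestinal SMC against 6180 to 7502 CPM in colonic SMC. The 59 pericytes of small intestine replicate 2 held 14108 CPM of general FB markers, whereas the other pericyte groups held 1826 to 3851 CPM. Markers of endothelial cells summed to at most 2.53 CPM in PDGFRαhi FB, with up to 4 of the 6 at 0 in a library.

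**Figure D1:**
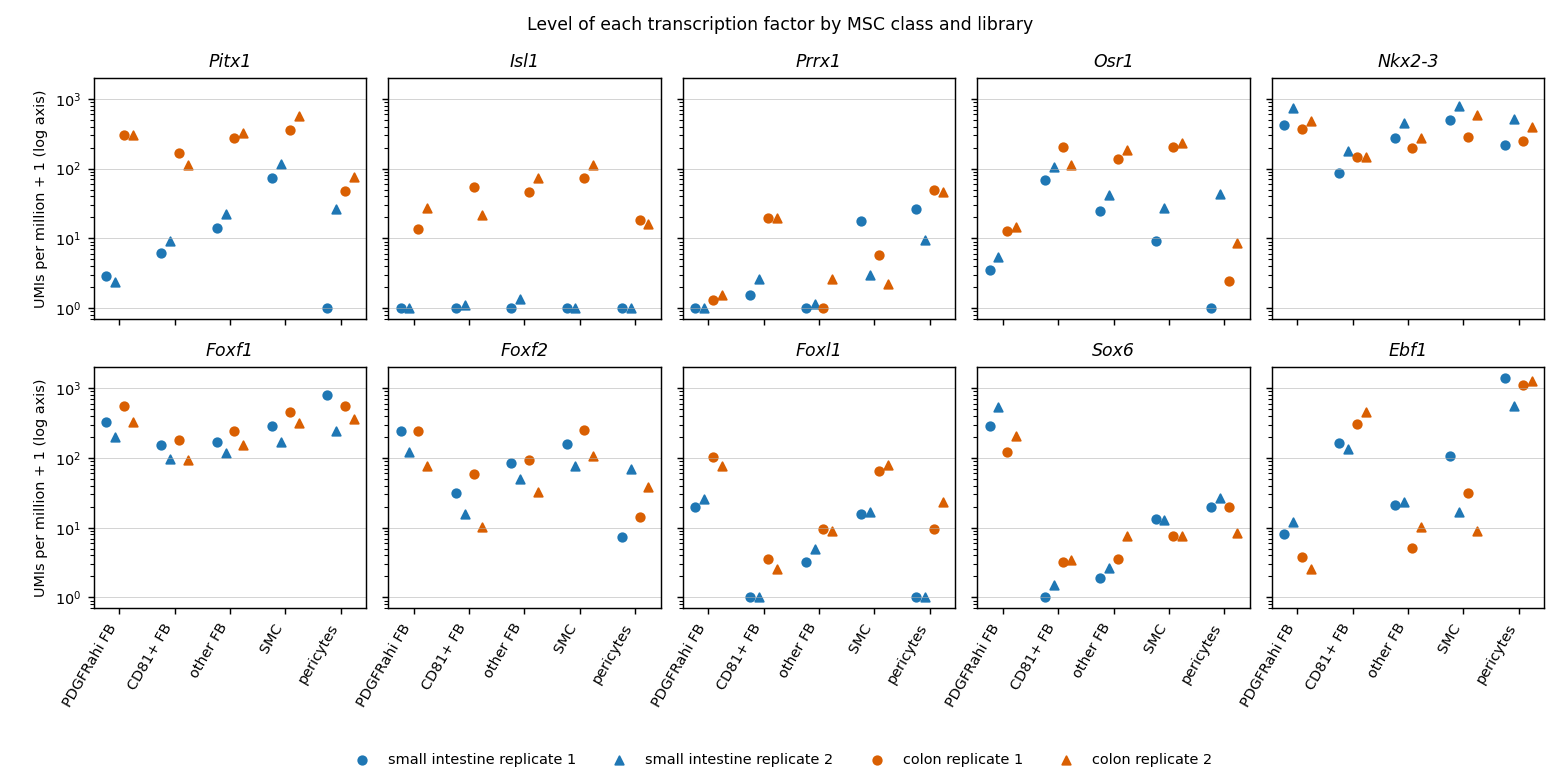
CPM plus 1 (log axis) of each transcription factor in 5 MSC classes, one point per library, blue for small intestine and orange for colon, circles for replicate 1 and triangles for replicate 2. Isl1 sits at or next to 0 in every small intestinal class, Sox6 is high in PDGFRαhi FB, and Ebf1 peaks in pericytes.

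Pitx1, a paired-type homeodomain factor best known for hindlimb and pituitary development, was higher in both colonic libraries than in both small intestinal ones in each of the 4 classes fitted. In PDGFRαhi FB it stood at 1.93 and 1.41 CPM in small intestine replicates 1 and 2 (8 UMIs in all) and at 300.4 and 298.8 CPM in colon replicates 1 and 2 (5984 UMIs), a log2 fold change of 7.69 (SE 0.37). When clusters replaced the marker gate, the small intestinal PDGFRαhi FB held 0 Pitx1 UMIs in 169 and 1306 cells, while the colonic ones kept 304 and 301.4 CPM. Small intestinal CD81+ FB held 5.24 and 8.1 CPM, on 99 UMIs.

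Other FB held 12.9 and 21.7 CPM of Pitx1 in the small intestine and 274 and 320.2 CPM in the colon (log2 fold change 4.06, SE 0.38). SMC had the highest level of both organs, 72.6 and 113.9 CPM against 361 and 572 CPM, and the smallest difference of the 4 classes (log2 fold change 2.33, SE 0.39). The order of classes in the small intestine therefore ran from SMC (93.2 ± 29.2 CPM, SD, n = 2) through other FB (17.3 ± 6.22 CPM) down to PDGFRαhi FB (1.67 ± 0.37 CPM), with SMC above every other class in both libraries. In the colon PDGFRαhi FB (299.6 ± 1.15 CPM) and other FB (297 ± 32.6 CPM) overlapped, below SMC (466 ± 149 CPM) and above CD81+ FB (139 ± 38.7 CPM) and pericytes (60.6 ± 20.2 CPM). With clusters, Pitx1 in colonic CD81+ FB was 39 and 67.1 CPM in replicates 1 and 2 (gate 166.7 and 112 CPM) and in pericytes 57.8 and 86.5 CPM, so these classes then overlapped.

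Endothelial cells, which should lack Pitx1, were present as a residue of the sort. They held 0 Pitx1 UMIs in 356 cells of small intestine replicate 1, 2 UMIs (1.58 CPM) in 236 cells of colon replicate 1 and 2 UMIs (15.9 CPM) in the 19 cells of colon replicate 2. Small intestine replicate 2 had no endothelial class, so the level of free Pitx1 RNA in the small intestine rests on the 0 UMIs of replicate 1.

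Pitx1 lies on chromosome 13 (55825051 to 55836192, minus strand, mm10). The lincRNA Gm28760 overlaps it on the same strand with a start 97 bp away, so reads of the shared stretch cannot be given to either gene with certainty. Gm28760 had 0 UMIs in small intestinal PDGFRαhi FB and 90 in colonic ones (7.37 and 3.03 CPM), and in other FB 3 against 93 UMIs. The protein-coding neighbours Txndc15 and Pcbd2, 98824 and 48221 bp away, differed little between the intestines, with log2 fold changes from -0.15 to -0.02 for Txndc15 and from -0.42 to 0.29 for Pcbd2 over the 4 classes.

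Isl1, a LIM homeodomain factor of motor neuron, heart and hindlimb progenitors, was at or next to 0 in every small intestinal class. In SMC it had 0 UMIs in both small intestinal libraries and 71.8 and 113.5 CPM in colon replicates 1 and 2 (425 UMIs), which is at least 30.8-fold higher against a floor of 3 UMIs over the small intestinal group. PDGFRαhi FB again had 0 UMIs in the small intestine and 12.7 and 26.7 CPM in the colon (at least 37.4-fold). Other FB had 8 UMIs in the small intestine, all in replicate 2 (0.36 CPM), and 45.7 and 72.7 CPM in the colon, with a log2 fold change of 7.65 (SE 0.70).

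Within the colon the mean Isl1 level fell from SMC (92.6 ± 29.5 CPM) to other FB (59.2 ± 19.1 CPM), CD81+ FB (37.2 ± 23.1 CPM), PDGFRαhi FB (19.7 ± 9.93 CPM) and pericytes (16.2 ± 1.68 CPM), and each neighbouring pair of classes overlapped between libraries. The place of CD81+ FB in that order hung on how the class was drawn. With the gate it had 53.5 and 20.8 CPM in colon replicates 1 and 2, and with clusters 2.01 and 7.26 CPM. Colonic cells with a Pi16 UMI, a marker of adventitial CD81+ FB, held 7.75 and 11.8 CPM of Isl1 in replicates 1 and 2, and CD81+ FB without one held 68.6 and 28.5 CPM. The split by Ackr4, another marker of CD81+ FB, gave 1.01 and 5.62 CPM with a UMI and 78.1 and 27.0 CPM without one. In the small intestine CD81+ FB had 1 Isl1 UMI, a ratio of 378 in favour of the colon (95% counting interval 67.5 to 14982). With clusters the log2 fold change of Isl1 in CD81+ FB was 5.52, against 8.51 with the gate. Colonic endothelial cells held 0 Isl1 UMIs in 236 cells of replicate 1 and 2 UMIs in 19 cells of replicate 2.

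Isl1 lies on chromosome 13 as well (116298281 to 116309689, minus strand), 60462089 bp from Pitx1. Because Isl1 differed so widely between the intestines, the 250 bases before its RefSeq start (GRCm38.p6, chr13:116309689-116309938, minus strand) are shown 5′ to 3′, with capitals for letters found by a search of both strands for TGTTTAC (forkhead), TAATCC (bicoid type, the class of Pitx1), TAATTA (homeodomain), CCACCCA (Gli core), TATAAA (the TATA box), CCAAT (the CCAAT box) and GGGCGG (the GC box).
Isl1: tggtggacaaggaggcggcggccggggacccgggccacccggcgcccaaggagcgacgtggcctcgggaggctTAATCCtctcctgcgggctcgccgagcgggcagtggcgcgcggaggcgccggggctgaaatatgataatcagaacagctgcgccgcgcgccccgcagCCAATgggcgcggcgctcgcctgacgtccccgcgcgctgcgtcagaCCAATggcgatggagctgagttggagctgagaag
The window was 71.2% G or C with 33 CpG, against a median of 52.4% over 32851 RefSeq starts. It held TAATCC once, 177 bases before the start, and CCAAT at 80 and 34 bases. TAATCC was found in 6.25% and CCAAT in 33.8% of all windows of that length, and a match is a description of letters and not a binding site.

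Osr1, an odd-skipped zinc finger factor of connective tissue and kidney progenitors, differed most in SMC and other FB. SMC held 8.3 and 26 CPM in the small intestine (17 UMIs) and 205.4 and 235 CPM in the colon (1001 UMIs), a log2 fold change of 3.67 (SE 0.49). Other FB held 23.6 and 41.3 CPM against 138 and 183 CPM (log2 fold change 2.28, SE 0.39). The ranges of the intestines did not touch in either class. Osr1 lies on chromosome 12 (9570116 to 9581500, plus strand).

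CD81+ FB carried the highest Osr1 level of the small intestine, 67.8 and 103 CPM, and there the colon stood little higher at 202.6 and 110.7 CPM (log2 fold change 0.71, SE 0.37). With clusters in place of the gate the CD81+ FB of the colon held 111 and 74.2 CPM, and the log2 fold change was 0.06. The leading Osr1 class thus was CD81+ FB in the small intestine (85.5 ± 25 CPM) and SMC in the colon (220.3 ± 21.2 CPM). PDGFRαhi FB were low in both, at 2.57 and 4.5 CPM and at 11.8 and 13.7 CPM, and colonic interstitial cells of Cajal, identified by Kit and Ano1, held 221 CPM in 15 cells and 142 CPM in 48 cells.

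Thy1 (CD90) split the colonic other FB by Osr1. Cells with a Thy1 UMI had 228 and 283 CPM of Osr1 in colon replicates 1 and 2, and cells without one had 49.3 and 139 CPM, a ratio of 4.63 and 2.04. Isl1 followed the same split with 61.6 and 97.7 CPM against 29.9 and 61.9 CPM. Few other FB of the small intestine had a Thy1 UMI (10 and 34 cells), and 7 Osr1 UMIs were too few there to compare.

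Prrx1, a paired-related homeodomain factor of limb and craniofacial mesenchyme, stayed at or below 47.7 CPM in every class drawn by the gate. Its levels in CD81+ FB were 0.55 and 1.62 CPM in the small intestine (18 UMIs) and 18.9 and 18.3 CPM in the colon (262 UMIs), a log2 fold change of 3.76 (SE 0.46). Pericytes stood highest, with 25.1 and 8.43 CPM in the small intestine and 47.7 and 45 CPM in the colon, on 9 and 39 UMIs. PDGFRαhi FB had 0 UMIs in the small intestine and 9 in the colon, and other FB had 3 and 28, the 28 all in colon replicate 2. SMC held 16.6 and 2 CPM in the small intestine and 4.72 and 1.25 CPM in the colon, on 9 and 13 UMIs. With clusters SMC had 0 Prrx1 UMIs in the small intestine and 1 in each colonic library, and colonic CD81+ FB had 34.2 and 20.4 CPM. CD81+ FB with a Pi16 UMI held 38.8 and 23.6 CPM in the colon against 12.4 and 13.8 CPM without one. Split by Ackr4 instead, they held 21.1 and 18.7 CPM with a UMI and 17.9 and 18.2 CPM without one.

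The 250 bases before the RefSeq start of Prrx1 (GRCm38.p6, chr1:163313651-163313900, minus strand) are shown for comparison with Isl1. The letters searched gave TAATTA, which is its own reverse complement, 173 bases before the start, a run present in 4.84% of all windows, and the window was 47.6% G or C.
Prrx1: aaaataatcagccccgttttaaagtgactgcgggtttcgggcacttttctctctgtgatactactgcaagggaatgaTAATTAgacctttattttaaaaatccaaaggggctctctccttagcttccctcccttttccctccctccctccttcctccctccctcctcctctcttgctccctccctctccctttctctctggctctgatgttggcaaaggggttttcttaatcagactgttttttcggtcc
The Prrx1 gene itself spans chromosome 1 from 163245119 to 163313710. Its paralogue Prrx2 had 9.97 and 13.7 CPM in small intestinal other FB and 48.3 and 73.7 CPM in colonic ones (log2 fold change 2.34, SE 0.36, edgeR adjusted p = 0.0926).

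Nkx2-3, an NK-family homeodomain factor of the midgut and hindgut mesenchyme and of mucosal vessels, overlapped between the intestines in every class fitted. PDGFRαhi FB held 428 and 735 CPM in the small intestine and 371 and 484 CPM in the colon, SMC 494 and 801 CPM against 284 and 582 CPM, and other FB 270.1 and 459 CPM against 198 and 279 CPM. The 4 classes fitted gave log2 fold changes of -0.29 (SE 0.39), -0.57 (SE 0.44) and -0.63 (SE 0.39) in those classes and 0.00 (SE 0.38) in CD81+ FB. In the same-numbered pairs the colon library was below the small intestinal one in PDGFRαhi FB, SMC and other FB.

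CD81+ FB were the low class for Nkx2-3 in both organs, at 86.6 and 179 CPM and at 146 and 148 CPM, below the ranges of other FB. Endothelial cells held 164 CPM in small intestine replicate 1 and 383 and 390 CPM in the colon, so this factor was not a mark of the MSC alone.

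Nkx2-3 lies on chromosome 19 (43612325 to 43615892, plus strand), 1700 bp from the divergent lincRNA Gm20467 by GENCODE positions. Gm20467 stood at 10.9 and 26.7 CPM in small intestinal and 17.6 and 25.1 CPM in colonic PDGFRαhi FB, and at 5.78 to 7.05 CPM in CD81+ FB, which were again the low class. For contrast with Isl1, the 250 bases before the RefSeq start (GRCm38.p6, chr19:43612075-43612324, plus strand) follow, with the same letters in capitals.
Nkx2-3: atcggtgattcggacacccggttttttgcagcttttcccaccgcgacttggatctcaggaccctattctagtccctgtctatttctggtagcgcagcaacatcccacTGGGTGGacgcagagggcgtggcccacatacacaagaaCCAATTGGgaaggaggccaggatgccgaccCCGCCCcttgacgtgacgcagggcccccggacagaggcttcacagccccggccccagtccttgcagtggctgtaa
This window held the Gli core on the minus strand at 143 bases, a letter run found in 8.11% of all windows, CCAAT on both strands at 105 and 102 bases, where the matches overlap, and a GC box at 75 bases (32.7% of all windows). The same letters lie in the window before a RefSeq start of Gm20467 (chr19:43612057-43612306, minus strand), which overlaps the Nkx2-3 window.

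Foxf1, the forkhead factor of splanchnic mesoderm, was present in all classes. It stood at 323 and 202 CPM in small intestinal PDGFRαhi FB and at 559 and 330.1 CPM in colonic ones (log2 fold change 0.89, SE 0.38), and at 286 and 168 CPM against 452 and 319.7 CPM in SMC (log2 fold change 0.77, SE 0.36). In PDGFRαhi FB and SMC replicate 1 exceeded replicate 2 in both intestines, and within each pair of the same number the colon library was the higher. Pericytes reached 802 and 244 CPM in the small intestine and 558 and 359.6 CPM in the colon, colonic interstitial cells of Cajal 972 and 477 CPM, and CD81+ FB were lowest with 91.9 to 179 CPM over the 4 libraries.

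Foxf2, its paralogue of the oral and intestinal mesenchyme, was narrower. In PDGFRαhi FB it stood at 241 and 123 CPM in the small intestine and 246 and 76.2 CPM in the colon, and in SMC at 159.7 and 75.9 CPM and at 255 and 105.6 CPM. CD81+ FB held 30.1 and 14.6 CPM and 57.7 and 9.21 CPM, and with clusters 11.4 and 12.1 CPM and 14.1 and 6.33 CPM. By the gate every replicate 1 library exceeded its replicate 2 partner in these 3 classes and in other FB, and that spread was larger than the difference between the intestines, with log2 fold changes of -0.06 (SE 0.61), 0.61 (SE 0.52), 0.37 (SE 0.88) and -0.13 (SE 0.55) in PDGFRαhi FB, SMC, CD81+ FB and other FB. Replicate 1 and 2 libraries also differed in depth per cell and in the version of the counting software, and these cannot be told apart.

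Foxl1, the marker of subepithelial cells called telocytes, was highest in PDGFRαhi FB and SMC. PDGFRαhi FB held 18.6 and 25 CPM in the small intestine and 101 and 75.5 CPM in the colon (log2 fold change 2.14, SE 0.30), and SMC 14.5 and 16 CPM against 64.7 and 77.3 CPM (log2 fold change 2.22, SE 0.37). Other FB were below with 2.27 and 4.02 CPM against 8.74 and 7.97 CPM. CD81+ FB had 0 UMIs in the small intestine and 25 in the colon, at least 7.92-fold more. With clusters CD81+ FB had 0 and 1 UMIs in small intestine replicates 1 and 2. In colon replicates 1 and 2 they then had 1 and 5 UMIs (0.67 and 0.52 CPM).

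Foxf1 and Foxl1 are neighbours on chromosome 8, with a gap of 39796 bp between 121088144 and 121127940, and the lncRNA Fendrr starts 1276 bp from Foxf1 on the opposite strand. Fendrr stood at 75.8 and 119 CPM in small intestinal and 77.1 and 107 CPM in colonic PDGFRαhi FB, with a log2 fold change of 0.07 (SE 0.36) where Foxl1 had 2.14. Of the 4 classes fitted, CD81+ FB had the lowest mean level of Fendrr (28.5 to 52.1 CPM over the 4 libraries) and also of Foxf1. Foxq1, 64840 bp from Foxf2 on chromosome 13, had 6.22 and 5.99 CPM in small intestinal SMC and 17.9 and 27.9 CPM in colonic ones (log2 fold change 1.90, SE 0.54, edgeR quasi-likelihood adjusted p = 0.188), and the lincRNA 5033426O07Rik, 68070 bp from Foxl1, had 0 UMIs in small intestinal and 118 in colonic PDGFRαhi FB.

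The Foxf2 window (GRCm38.p6, chr13:31625566-31625815, plus strand, 71.6% G or C) held 2 GC boxes at 227 and 201 bases before the start and none of the other letters searched. The forkhead run occurs in 3.17% of all windows.
Foxf2: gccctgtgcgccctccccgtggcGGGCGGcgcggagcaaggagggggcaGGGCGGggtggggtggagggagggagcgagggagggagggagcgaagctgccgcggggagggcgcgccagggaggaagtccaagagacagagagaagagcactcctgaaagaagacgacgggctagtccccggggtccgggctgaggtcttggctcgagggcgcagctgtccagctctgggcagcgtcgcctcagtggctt
It is printed beside the Isl1 window because both are rich in G and C, while Foxf2 was present in both intestines.

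**Figure D2:**
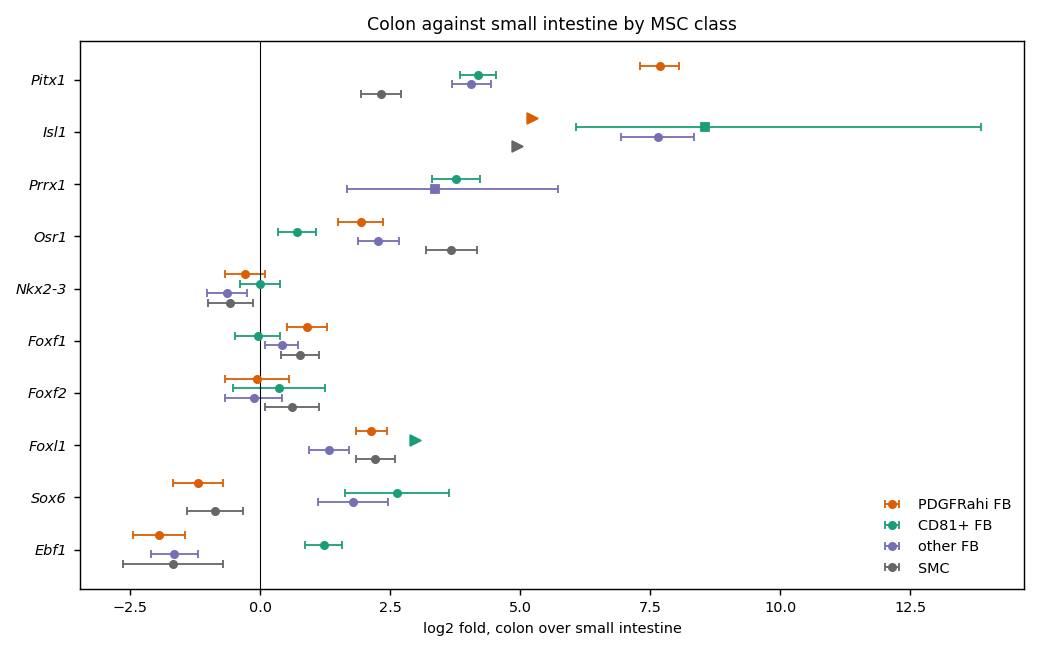
Log2 fold of each factor in colon over small intestine, by class. Circles with bars are the edgeR estimate and its standard error (2 libraries per intestine), squares are ratios on 1 to 3 UMIs with a 95% counting interval, and triangles are lower bounds against a floor of 3 UMIs. Pitx1 and Isl1 lie far to the right, Nkx2-3 and Foxf2 around 0 and Ebf1 is to the right in CD81+ FB and to the left in the other classes, where the SMC value is 0.23 without small intestine replicate 1.

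Sox6, which acts with Sox5 in cartilage and muscle, stood far higher in PDGFRαhi FB than in the other MSC classes. PDGFRαhi FB held 288 and 545 CPM in the small intestine and 120.2 and 205 CPM in the colon (log2 fold change -1.19, SE 0.48), and the small intestinal library was the higher in both same-numbered pairs. Every other MSC class had between 0 and 25.3 CPM. Sox6 lies on chromosome 7 (115470872 to 116038796, minus strand). Sox6 in other FB (0.91 and 1.63 CPM against 2.58 and 6.63 CPM) and CD81+ FB (5 and 34 UMIs) was low, and endothelial cells had 6 UMIs (3.67 CPM) in small intestine replicate 1, 0 in colon replicate 1 and 1 (7.95 CPM) in the 19 cells of colon replicate 2.

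Within colonic PDGFRαhi FB the Sox6 level was uneven. Cells with a UMI of Thbd, the gene of thrombomodulin (CD141), had 141 and 310.1 CPM in replicates 1 and 2, and cells without one had 23.8 and 82.4 CPM, a ratio of 5.92 and 3.76. In the small intestine the same split gave 579 against 464 CPM in replicate 2, and only 15 cells of replicate 1 lacked a Thbd UMI. Pitx1 (ratios of 1.64 and 1.71) and Nkx2-3 (1.68 and 1.67) followed Thbd in the colon to a lesser degree, and Foxf1 went the other way (0.79 and 0.83). Sox6 also followed Acta2, one of the SMC markers, in colonic PDGFRαhi FB (136 and 256 CPM with an Acta2 UMI against 29.1 and 72.9 CPM without one). In small intestine replicate 2 the Acta2 split gave 545.0 against 547.2 CPM, and only 3 cells of replicate 1 lacked an Acta2 UMI. In colonic PDGFRαhi FB the median depth was lower with a Thbd UMI (10126 and 3681 UMIs per cell in replicates 1 and 2) than without one (12796 and 4240 UMIs), and the part of depth in the splits was not tested.

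Ebf1, a helix-loop-helix factor, had its highest mean level of the MSC classes in pericytes in both intestines, as did Foxf1 and Prrx1. Pericytes held 1391 and 565 CPM in the small intestine and 1124 and 1274 CPM in the colon, and with clusters the low value of small intestine replicate 2, the library whose pericytes held FB markers, was 1356 CPM. CD81+ FB came next, at 161 and 136 CPM in the small intestine and 303 and 461 CPM in the colon (log2 fold change 1.22, SE 0.35). With clusters the colonic CD81+ FB held 612 and 535 CPM of Ebf1, and the log2 fold change was 1.53. Endothelial cells held 318 to 394 CPM. Ebf1 lies on chromosome 11 (44617317 to 45008091, plus strand).

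In PDGFRαhi FB and other FB the colon was the lower side for Ebf1. PDGFRαhi FB held 7.06 and 11 CPM in the small intestine and 2.8 and 1.59 CPM in the colon (log2 fold change -1.94, SE 0.50), and other FB 20.4 and 22.1 CPM against 4.15 and 9.19 CPM (log2 fold change -1.65, SE 0.45). SMC were split between libraries, with 105.8 and 16 CPM against 30.2 and 7.9 CPM, and the 105.8 CPM of small intestine replicate 1 was 10.8 CPM with clusters. The log2 fold change in SMC was -1.68 (SE 0.96), and 0.23 without small intestine replicate 1. Pericyte markers moved with Ebf1 here, at 941 to 1018 CPM in small intestinal other FB against 143 to 146 CPM in colonic ones. In CD81+ FB, where the colon was the higher side for Ebf1, they were also lower in the colon (534 to 564 CPM against 115 to 121 CPM), and their part was not tested. Markers of CD81+ FB stood at 1836 to 2301 CPM in small intestinal other FB against 774 to 856 CPM in colonic ones. In PDGFRαhi FB they stood at 147 to 148 CPM against 75 to 78 CPM. In CD81+ FB they were lower in the colon too (6049 to 6333 CPM against 3979 to 4094 CPM), and their part was not tested either. Among CD81+ FB, cells with a Pi16 UMI had more Ebf1 in all 4 libraries, with 216 and 219 CPM against 142 and 123 CPM in the small intestine and 676 and 619.7 CPM against 179 and 327 CPM in the colon. Cells with an Ackr4 UMI also had more in all 4 libraries, with 182 and 148 CPM against 116 and 126 CPM in the small intestine. In the colon they had 589 and 563 CPM against 169 and 420 CPM. Pi16 and Ackr4 are both markers used to draw this class.

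**Figure D3:**
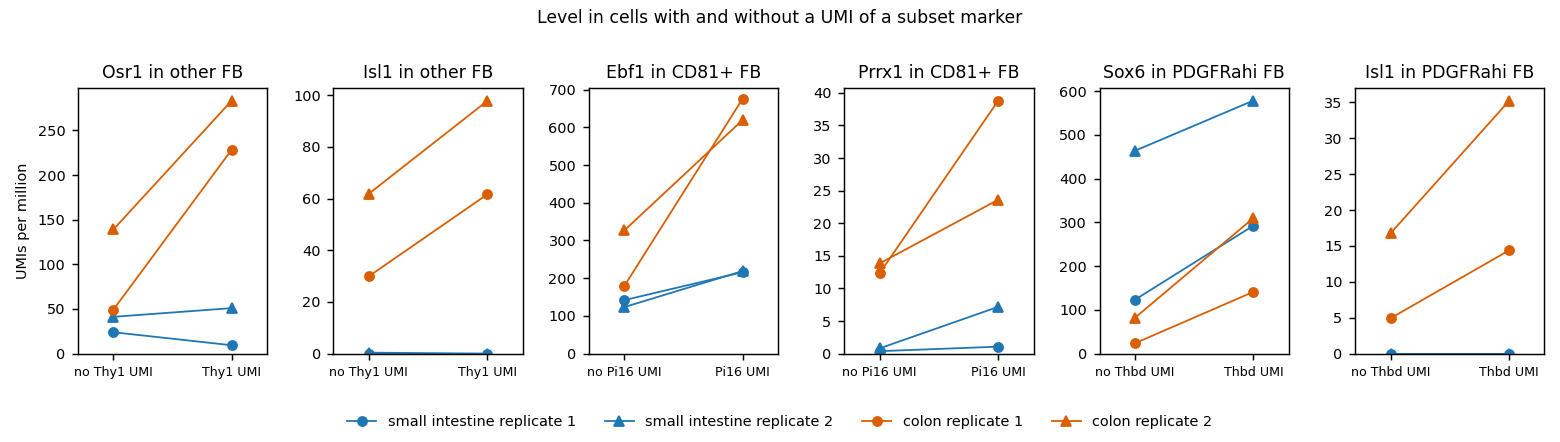
CPM of Osr1, Isl1, Ebf1, Prrx1 and Sox6 in cells without and with a UMI of a subset marker, one line per library, blue for small intestine and orange for colon, circles for replicate 1 and triangles for replicate 2. Values are higher with Thy1 for Osr1 and Isl1 in the colon, with Pi16 for Ebf1 in all 4 libraries, and with Thbd for Sox6 in all 4, where small intestine replicate 1 rests on 15 cells without Thbd.

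Over 20 class by library profiles, which share libraries and depth in groups, the log2 levels of Prrx1 and Ebf1 (Pearson r = 0.86) and of Pitx1 and Isl1 (r = 0.81) ran closest, and Foxf2 ran most against Ebf1 (r = -0.68). The genes whose profile was most like that of Isl1, among 6288 genes with a mean of at least 20 CPM, were Hoxa10 (r = 0.97), Lgals3 (r = 0.95) and Hoxa11 (r = 0.94), of which Hoxa10 and Hoxa11 are posterior Hox genes. For Pitx1 they were Arrdc4 (r = 0.88), Postn (r = 0.82) and Cd9 (r = 0.82), and for Osr1 the matrix gene Abi3bp (r = 0.88), Rpl14 (r = 0.85) and S100a10 (r = 0.85).

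Prrx1 was most like Lamb2 (r = 0.89), Usp2 (r = 0.86) and Ebf1, and Ebf1 most like Galnt16 (r = 0.94), Cystm1 (r = 0.92) and Lamb2 (r = 0.89). The forkhead members matched Cnbp (r = 0.95), P3h2 (r = 0.94) and Hnrnpk (r = 0.93) for Foxf1, Parva, Cmtm7 and Fhl1 (r from 0.88 to 0.89) for Foxf2, and Chst1 (r = 0.91), Mrps18a and Manbal (r = 0.90) for Foxl1. Sox6 was nearest to Gna12 (r = 0.91), Serpinb6b and Tspan13 (r = 0.90), and Nkx2-3 to Plekhh2, Cdc40 (r = 0.92) and Snrpc (r = 0.90). These are descriptions over 20 points with no p, and 24 of the 30 genes named stayed among the 3 closest with log2(CPM + 5).

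**Figure D4:**
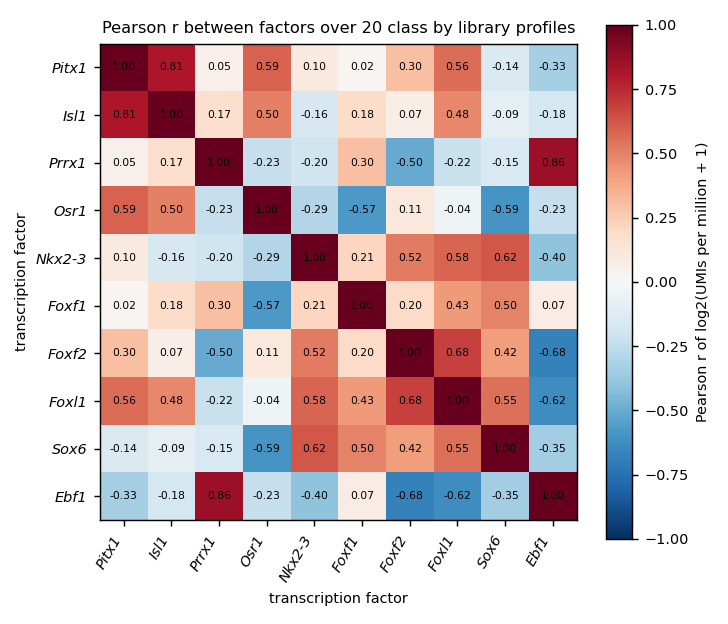
Pearson r between the 10 factors over 20 profiles (5 classes in 4 libraries) of log2(CPM + 1). The Prrx1 and Ebf1 pair and the Pitx1 and Isl1 pair are the darkest red, and Ebf1 with Foxf2 is the darkest blue.

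The colon was set against the small intestine over all genes with edgeR's quasi-likelihood test on UMIs summed per library and class, and a call required both a log2 fold change of more than 1.5 in size and a p below 0.05 after Benjamini-Hochberg correction over all genes of that class. In PDGFRαhi FB 182 of 11699 genes were called (1.56%), in other FB 73 of 12711 (0.574%) and in SMC 150 of 9523 (1.58%). In CD81+ FB 0 of 11817 were called (0.0%), although 1009 had an unadjusted p under 0.05 and DESeq2 called 256. Of the selected members that could be fitted, 2 of 9 were called in PDGFRαhi FB (Pitx1 and Foxl1), 2 of 9 in other FB (Pitx1 and Isl1), 4 of 9 in SMC (Pitx1, Isl1, Osr1 and Foxl1) and 0 of 10 in CD81+ FB, which nothing is read from because they were chosen on this contrast. An exact two-sided permutation test of 2 libraries against 2 cannot go below p = 0.3333.

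A wider list of 87 transcription factors, 21 paralogues of the members and 66 other factors of mesenchyme and smooth muscle, was tested with p-values adjusted over all genes. It was drawn up with earlier results of these data known, so its p-values are not independent of that choice. In PDGFRαhi FB 3 of 57 tested were called, all higher in the colon, with a list median log2 fold change of -0.13 beside 0.02 over all genes. Ahr, the receptor for aryl hydrocarbons, had 4.5 and 6.19 CPM in the small intestine and 79.5 and 94.5 CPM in the colon (log2 fold change 4.14, SE 0.36, edgeR adjusted p = 0.0195). Lef1, a nuclear partner of Wnt signals, had 1 UMI in the small intestine and 715 in the colon, a ratio of 183 (95% counting interval 32.7 to 7236, adjusted p = 0.0313 by edgeR), and Meox1, a homeodomain factor of somites, had 5.78 and 4.78 CPM against 31.4 and 37.6 CPM (log2 fold change 2.88, SE 0.34, edgeR adjusted p = 0.0324).

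In SMC 2 of 49 list genes were called. Ahr had 3 UMIs in the small intestine and 207 in the colon, a ratio of 15 (95% counting interval 5.06 to 73.3, edgeR adjusted p = 0.0255). Msc (musculin) was the list gene that fell, from 16.6 and 24 CPM in the small intestine to 0.47 and 0.83 CPM in the colon, 20 against 3 UMIs (30.7-fold, 95% counting interval 9.10 to 161, edgeR adjusted p = 0.0369). In other FB 1 of 63 was called, Lef1 with 1 against 130 UMIs (142.8-fold, 95% counting interval 25.2 to 5685, edgeR adjusted p = 0.0416). In CD81+ FB 0 of 63 were called by edgeR, 15 had an unadjusted p under 0.05, and DESeq2 called 5.

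The list calls depended on single libraries and on how cells were chosen. With the stricter gate and with clusters the edgeR adjusted p of Lef1 was 0.0519 and 0.0578 in PDGFRαhi FB and 0.0596 and 0.0546 in other FB, and with doublets kept that of Ahr was 0.0761 and that of Msc 0.195 in SMC. Leaving out small intestine replicate 1 gave edgeR adjusted p-values of 0.0605 for Ahr, 0.0751 for Lef1 and 0.111 for Meox1 in PDGFRαhi FB, and leaving out small intestine replicate 2 gave 0.1003 for Ahr, 0.134 for Lef1 and 0.208 for Meox1. For Ahr in SMC the same 2 omissions gave 0.0655 and 0.0848, and for Lef1 in other FB 0.0837 and 0.189, with 0.0870 without colon replicate 2. For Msc in SMC the edgeR adjusted p was 0.0805 without small intestine replicate 1, 0.510 without colon replicate 1 and 0.296 without colon replicate 2. Over all alternatives the adjusted p reached at most 0.208 for Meox1, 0.134 for Lef1 and 0.1003 for Ahr in PDGFRαhi FB, 0.189 for Lef1 in other FB, and 0.0848 for Ahr and 0.510 for Msc in SMC, by edgeR or DESeq2. The lowest was 3.78e-62 for Ahr in PDGFRαhi FB, by edgeR with replicate number as a block. The labels do not tie that number to an experiment. For Lef1 in other FB the lowest was 5.71e-05, by DESeq2. The direction of these 6 differences held in each fit that could be made.

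**Figure D5:**
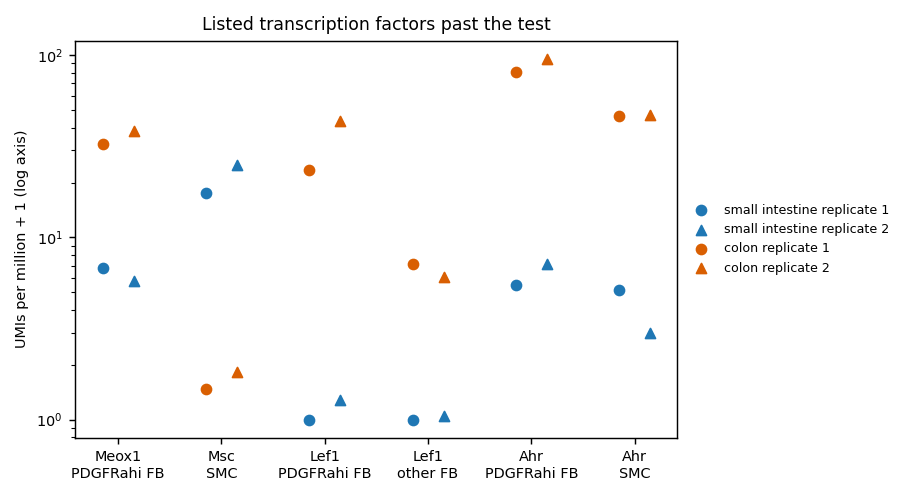
CPM plus 1 (log axis) of the 4 listed factors called between the intestines, by class, one point per library, blue for small intestine and orange for colon, circles for replicate 1 and triangles for replicate 2. Meox1, Lef1 and Ahr lie higher in the colon and Msc in SMC lies lower, with no overlap.

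No paralogue of a member was called in the 4 classes by edgeR, where 7 in PDGFRαhi FB, 9 in CD81+ FB, 8 in other FB and 5 in SMC could be tested and 3, 5, 4 and 4 had an unadjusted p under 0.05. Over all genes 1480 of 11699, 1009 of 11817, 1330 of 12711 and 1136 of 9523 had one. Over the whole list DESeq2 called 7, 5, 7 and 3 factors in these classes, and over all genes it called 536, 256, 422 and 273. Prrx2 had 1.93 and 3.94 CPM in small intestinal and 22.1 and 31.2 CPM in colonic PDGFRαhi FB (log2 fold change 3.24, SE 0.48, edgeR adjusted p = 0.0573). Osr2, the paralogue of Osr1, had 6 UMIs in small intestinal and 403 in colonic CD81+ FB (log2 fold change 5.36, SE 1.09, edgeR adjusted p = 0.211).

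Among the other paralogues with 50 or more UMIs, Sox5, the partner of Sox6, had 23.1 and 22.8 CPM in small intestinal and 44.8 and 55.9 CPM in colonic PDGFRαhi FB (log2 fold change 1.29, SE 0.30, edgeR adjusted p = 0.135). Foxs1 reached 213 and 42.1 CPM in small intestinal and 202.5 and 89.9 CPM in colonic pericytes, where Ebf2 had 75.2 and 16.9 CPM and 65.1 and 89.9 CPM. Over all kept cells Ebf3, Ebf4, Foxc1, Foxd2, Isl2 and Sox13 had 79, 437, 121, 68, 860 and 1208 UMIs. Isl2, the paralogue of Isl1, stood at 13 and 16.2 CPM in small intestinal and 17 and 11.6 CPM in colonic CD81+ FB (log2 fold change -0.21, SE 0.29, edgeR adjusted p = 0.967).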

How the data were processed

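The deposited values were raw UMI counts per gene and barcode, made by the authors with Cell Ranger against mm10, with no normalization. The file headers give Cell Ranger 3.0.2 for both replicate 1 libraries and 3.1.0 for both replicate 2 libraries, and the submitters' notes also list Seurat 3. Libraries were made with 3′ or 5′ chemistry, and which one each library had is not given in the sources used here. Barcodes were dropped if they had fewer than 500 genes, fewer than 1000 UMIs or over 10% of UMIs from mitochondrial genes. Doublet scores came from scrublet in scanpy 1.11.5 (Python 3.11.15); its automatic threshold marked 1 of 15263 barcodes (0.007%) of small intestine replicate 2, so the top scores at an expected rate of 0.8% per 1000 barcodes were removed (27, 1864, 47 and 1288 barcodes). Libraries shared 0 to 69 barcodes per pair. Each cell was given the class with the highest negative binomial likelihood of its marker UMIs. The 10 members and both gene lists were chosen with earlier results of these data known. UMIs were summed per library and class and fitted with edgeR 4.0.16 (R 4.3.3; TMM, filterByExpr), with DESeq2 1.42.0 as an alternative, after the code was tested on simulated data. The labels do not say which experiment each library came from, so p-values measure the spread between these libraries. Positions are from GENCODE vM21 and promoters from RefSeq, in which 6 of the 10 members had an entry. Genes named from the lists were those called in each class, neighbours within 100 kb with at least 50 UMIs, paralogues with at least 50 UMIs and the 3 most alike genes of each member. The values of 1 gene that met this rule are not reported here. The splits by Thbd, Thy1, Pi16, Ackr4 and Acta2 UMIs were likewise chosen with values known. Counting intervals (exact, Clopper-Pearson) and the floor of 3 UMIs cover counting error only.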

Additional observations from a re-analysis of the deposited data

How the results depend on the processing

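The counts of genes called between the intestines changed with several settings. For PDGFRαhi FB (182 genes) DESeq2 gave 536, no low-count filter 589 and leaving out 1 library 0 to 312 (0 without small intestine replicate 2). For CD81+ FB (0 genes) DESeq2 gave 256, clusters 107, no filter 273, a stricter gate 1 and leaving out 1 library 0 to 215 (215 without colon replicate 1). For other FB (73 genes) DESeq2 gave 422, no filter 341 and leaving out 1 library 0 to 165 (0 without small intestine replicate 2). For SMC (150 genes) DESeq2 gave 273, clusters 309, doublets kept 32, no filter 367 and leaving out 1 library 93 to 357.

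Of the listed transcription factors, PDGFRαhi FB (3) gave 7 with DESeq2, 7 without the filter and 0 to 6 without 1 library. CD81+ FB (0) gave 5 with DESeq2, 2 with clusters, 3 without the filter and 0 to 6 without 1 library. Other FB (1) gave 7 with DESeq2, 5 without the filter, 0 with clusters, 0 with the stricter gate and 0 to 4 without 1 library. SMC (2) gave 4 with clusters, 0 with doublets kept and 0 to 5 without 1 library. The cause was not tested.

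With the replicate block, 899, 289, 690 and 588 genes and 11, 5, 10 and 8 listed factors were called in PDGFRαhi FB, CD81+ FB, other FB and SMC. Libraries of the same number deviated together (r = 0.744, 0.691, 0.777 and 0.568), and they also shared the software version, a like depth per cell and more barcodes (8 and 69 against 0 to 2 in the other pairs). The labels do not say that the number marks a shared experiment. Of 394 alternative log2 fold changes of members, 349 moved by less than 1 SD and 19 took the other sign, all of Nkx2-3, Foxf1, Foxf2 and, in SMC, Ebf1. Depth limits the classes of few cells, pericytes above all.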
